A study of Mus musculus with 6 samples.

Results

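Id1, Id2, Id3 and Id4 are the 4 genes of the inhibitor of DNA binding family, and they were followed here in coronal sections of the mouse brain at 3 ages. They were chosen by name, as 4 of the 32285 genes in the files, with an earlier result of these data known: Id1 was higher in old than in young isocortex. Old against young is therefore given as a description, with no test. Middle against young and old against middle were tested, but each shares its young or its old sections with that known comparison.

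The sections were 16 µm thick and came from male C57BL/6J mice aged 6 months (young), 18 months (middle) and 21 months (old), with 2 males per age. They were cut at about the same coronal level from frozen brains, and no animal carried a transgene or received a treatment. RNA was captured with 10x Genomics Visium, an array of barcoded spots, each covering a small piece of tissue that can hold several cells. Young 1, young 2, middle 1 and old 1 lay on slide 1, and middle 2 and old 2 lay on slide 2, so no young section shares a slide with middle 2 or old 2.

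Bone morphogenetic proteins (BMPs) are secreted ligands that bind paired type I and type II receptor kinases on the cell surface. The receptors phosphorylate SMAD1, SMAD5 and SMAD9, which enter the nucleus with SMAD4 and switch on target genes, among which Id1, Id2 and Id3 are classic examples. ID proteins carry a helix-loop-helix domain for pairing but no basic region for contacting DNA: they bind E proteins such as TCF4 and TCF12 and keep them from pairing with other basic helix-loop-helix (bHLH) factors. In the brain the family is known for holding neural progenitors back from differentiation and for its expression in blood vessels and glia.

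The 4 genes lie on 4 chromosomes (GRCm38/mm10, GENCODE M21). Id1 (ENSMUSG00000042745) spans chr2:152736251-152737410 on the plus strand, with 2 exons and a coding length of 444 bases. Id2 (ENSMUSG00000020644) spans chr12:25093799-25097140 on the minus strand, with 3 exons and 402 coding bases. Id3 (ENSMUSG00000007872) spans chr4:136143497-136145755 on the plus strand, with 3 exons and 357 coding bases. Id4 (ENSMUSG00000021379) spans chr13:48261228-48266026 on the plus strand, with 3 exons and 483 coding bases.

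What makes them a family is visible in the part of the coding sequence that encodes the helix-loop-helix domain, shown here because it is where the members are alike. The window is the 120-base in-frame stretch most alike in all 4, within the first exon of each: chr2:152736518-152736637 (Id1, plus), chr12:25095783-25095902 (Id2, minus), chr4:136144002-136144121 (Id3, plus) and chr13:48261693-48261812 (Id4, plus). Sequences run 5′ to 3′ on the coding strand, and capitals mark the 69 of 120 bases that are identical in all 4 genes.
Id1: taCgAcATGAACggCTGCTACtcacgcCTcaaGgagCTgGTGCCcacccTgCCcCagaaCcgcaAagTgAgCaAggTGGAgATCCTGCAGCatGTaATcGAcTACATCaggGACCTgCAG
Id2: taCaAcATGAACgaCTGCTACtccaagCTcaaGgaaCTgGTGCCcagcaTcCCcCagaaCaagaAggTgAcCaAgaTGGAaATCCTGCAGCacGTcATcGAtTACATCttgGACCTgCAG
Id3: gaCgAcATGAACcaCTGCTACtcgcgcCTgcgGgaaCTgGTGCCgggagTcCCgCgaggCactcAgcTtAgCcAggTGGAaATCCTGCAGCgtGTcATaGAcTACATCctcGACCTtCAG
Id4: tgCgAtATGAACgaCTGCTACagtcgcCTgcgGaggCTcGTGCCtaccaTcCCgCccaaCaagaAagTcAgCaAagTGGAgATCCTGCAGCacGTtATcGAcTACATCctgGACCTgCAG

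Id1 and Id2 were the most alike in this window, at 81.7% identity, and Id3 stood equally far from Id1 and from Id4, at 70.8%. The longest exact stretch that any pair of the 4 genes' transcripts shared ran from 11 to 19 bases.

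The sections held 2573 to 2973 spots each, and 16741 of 16743 spots had at least 500 unique molecules (UMIs) and were kept. Totals ran from 60938938 to 77557934 UMIs per section, and the median per spot was 30093 and 26305.5 in young, 26099 and 25904.5 in middle and 21766 and 20370 in old sections, so depth per spot was lowest in the old. Values are therefore given as CPM (UMIs of a gene relative to all UMIs of the section or region, the usual counts-per-million scale), scaled between sections by the trimmed mean of M-values. Each section held 1519 to 1985 UMIs of Id1, 10264 to 13870 of Id2, 3790 to 4484 of Id3 and 5503 to 8331 of Id4. The spots formed 26 clusters, of which 17 took a region name from marker genes. The labelled brain tissue was borne out by these markers in 9 regions. The naming rule was set after the clusters were seen, and it left 20.9% to 27.1% of the spots of each section unnamed. The Id genes took no part in the clustering. The 6 sections shared 1920 spot barcodes, which are array positions and not cells.

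Over whole sections, Id1 and Id3 were higher in both middle and both old sections than in either young section, while Id2 and Id4 showed no such order. Id1 stood at 20.5 and 22.7 CPM in young, 26.1 and 25.8 in middle and 28.2 and 30.02 in old sections. The 3 age groups of Id1 did not overlap, and the step from young to middle (log2 fold change 0.27 ± 0.067, SE) was larger than the step from middle to old (0.16 ± 0.067). Id3 stood at 51.3 and 48.8 CPM in young, 58.8 and 58.7 in middle and 60.7 and 63.3 in old sections. Its groups did not overlap either, and most of its difference lay between young and middle (0.23 ± 0.052, against 0.077 ± 0.052 from middle to old).

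From young to old the difference was 0.43 ± 0.068 on the log2 scale for Id1, a 1.35-fold higher level, and 0.31 ± 0.052 for Id3, a 1.24-fold higher level. Group means of Id1 were 21.6 ± 1.62, 25.97 ± 0.179 and 29.1 ± 1.32 CPM (SD, n = 2 sections each). For Id3 they were 50.1 ± 1.79, 58.8 ± 0.0535 and 62.0 ± 1.86 CPM. Id1 and Id3 were thus 2 of 4 members with old above young without overlap, where 21.5% of the 17673 genes tested had that order. An order rising at both steps without overlap was held by 3.19% of genes and by the same 2 members. Since Id1 was known to be higher in old isocortex when the genes were chosen, these shares are no test of the members. Over the same whole sections, endothelial markers summed to 239 and 238 CPM in young, 267 and 262 in middle and 247 and 252 in old sections, and mural markers to 144 and 140, 159 and 157, and 144 and 172. Microglial markers, which were highest in old 2, summed to 291 and 306, 342 and 348, and 349 and 393, and the part of these lists was not tested.

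No step of any member passed edgeR's quasi-likelihood test with Benjamini-Hochberg adjustment over all genes. From young to middle the adjusted p was 0.425 for Id1 and 0.351 for Id3, where 0.0679% of genes were called, 12 in number. From middle to old the adjusted p of all 4 members was 1, and 0% of genes were called: 361 had an unadjusted p under 0.05 in edgeR, and DESeq2 called 0. With 2 sections a group the fit had 3 residual degrees of freedom. On simulated data for old against young, the test recovered 76.1% of genes changed by 1 on the log2 scale. The differences of Id1 and Id3 are smaller than that. Changes of their size, and the 2 tested steps, were not simulated, so the recovery for them is not known.

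Id2, which had the most UMIs of the 4, stood at 179.0 and 175.4 CPM in young, 185.0 and 165.7 in middle and 169.8 and 165.8 in old sections. The middle sections lay at both ends of its range, and the difference from young to old was −0.079 ± 0.063 on the log2 scale. Id4 stood at 112.2 and 99.9 CPM in young, 100.8 and 102.5 in middle and 101.3 and 88.9 in old sections. Its groups overlapped, with a difference of −0.16 ± 0.079 from young to old. From young to middle the adjusted p was 0.973 for Id2 and 0.882 for Id4 in the same edgeR test.

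**Figure D1:**
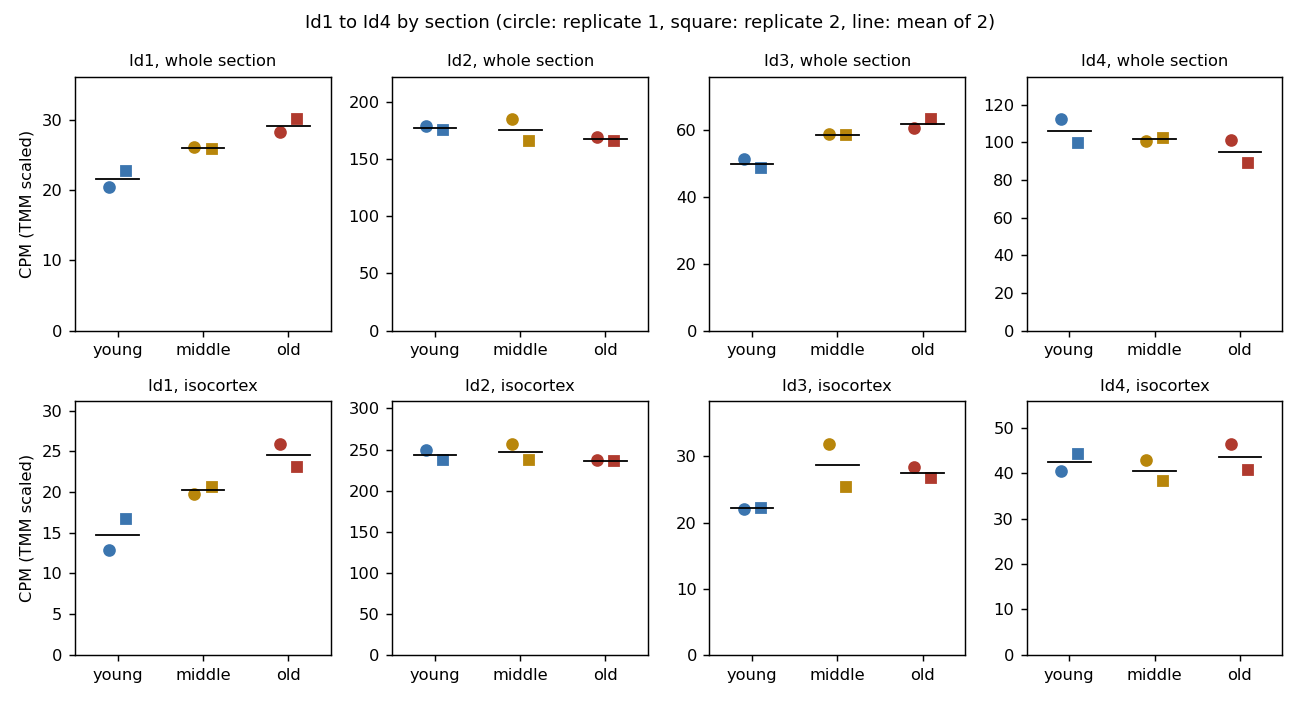
Expression of Id1 to Id4 (CPM, linear axis from 0) in each of the 6 sections, over the whole section and over isocortex spots only; points are sections and lines the mean of the 2 sections of an age. Id1 and Id3 sit higher in the middle and old than in the young sections in both panels, and Id2 and Id4 do not.

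Within the isocortex, the layered outer cortex (3569 spots in 4 clusters), Id1 showed the widest difference with age of any member in any region. It stood at 12.8 and 16.7 CPM in young, 19.8 and 20.6 in middle and 25.9 and 23.1 in old sections, with no overlap between ages. Of the 15209 genes tested there, 2.1% rose at both steps without overlap. That Id1 was higher in old than in young isocortex was known when the genes were chosen. This share and the rank of its difference are therefore descriptions and not tests. The difference of Id1 was 0.45 ± 0.12 on the log2 scale from young to middle (adjusted p = 0.253), 0.28 ± 0.11 from middle to old (adjusted p = 0.999) and 0.73 ± 0.12 from young to old, a 1.66-fold higher level, in edgeR's fit. Young 1 was the lowest section: without it the difference from young to old was 0.56, and without young 2 it was 0.93. Between the sections of slide 1 alone, old lay above young by 0.83 and middle above young by 0.44, and on slide 2 old lay above middle by 0.17.

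Id3 in the isocortex stood at 22.1 and 22.3 CPM in young, 31.9 and 25.4 in middle and 28.4 and 26.8 in old sections. Both later ages lay above both young sections (0.37 ± 0.10 from young to middle with an adjusted p of 0.265, and 0.32 ± 0.10 from young to old). Unlike over the whole section, old was not above middle: the old sections lay between the 2 middle sections. With no filter on low counts the step from young to middle had an adjusted p of 0.00395 for Id1 and 0.00905 for Id3 in edgeR. Calls over all genes also rose without the filter, as given in the closing section, and the cause was not tested. In this region 0.171% of genes were called from young to middle and 0% from middle to old (404 genes at an unadjusted p under 0.05, 1 gene called by DESeq2), and none of the 4 members was among them with the filter. From young to old, 0.197% of the genes tested in the isocortex were called, 0.0431% in the hypothalamus and 0.0942% in the striatum. In the isocortex 19.9% had old above young without overlap, as had Id3 and Id1, whose difference there was known beforehand.

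Id2 varied little between sections of the isocortex: 249.8 and 237.6 CPM in young, 257.1 and 237.2 in middle and 236.8 and 235.9 in old sections. Id4 was low in the isocortex, at 40.5 and 44.2, 42.8 and 38.2, and 46.5 and 40.7 CPM in the same order. The differences from young to old were −0.044 ± 0.064 for Id2 and 0.044 ± 0.085 for Id4.

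The isocortex sums are made of 4 clusters, whose Id1 values are given here as parts of the same sums and not as further support. In the cluster led by Lamp5 and Rasgrf2, genes of the upper cortical layers, Id1 stood at 11.3 and 12.3 CPM in young, 17.3 and 17.6 in middle and 17.7 and 19.7 in old sections. In the cluster led by Fezf2, a transcription factor of deep-layer projection neurons, and Parm1 it stood at 13.5 and 17.3, 24.6 and 21.1, and 27.0 and 25.2 CPM. In the cluster led by Rprm and Nxph3 it stood at 13.0 and 19.3, 16.9 and 20.5, and 34.4 and 24.3 CPM. In the cluster led by Rspo1 and Kcnab3 the values were 12.3 and 18.5, 19.1 and 24.7, and 26.4 and 24.0 CPM. Cluster values are plain CPM, without scaling between sections.

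Markers of the cells that could carry Id1 were read in the same isocortex spots. The 10 endothelial markers, genes of the vessel lining, summed to 210 and 201 CPM in young, 232 and 226 in middle and 211 and 217 in old sections. None of the 10 was called. Their median difference was 0.15 on the log2 scale from young to middle, with 7 of 10 above 0, and −0.0036 from young to old, with 5 of 10 above 0. The 7 mural markers, genes of pericytes and vascular smooth muscle, summed to 103 and 101, 124 and 117, and 108 and 117 CPM. All 7 lay above 0 from young to middle, at a median of 0.25 (0.085 from young to old), so endothelial and mural markers were both higher at the first step of Id1. Astrocyte markers summed to 2368 to 2548 CPM, microglial markers to 224 to 244 and fibroblast markers to 10.8 to 13.8, and no defining marker was at 0 in all sections.

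Markers of blood differed: they summed to 118 and 55.0 CPM in young, 9.31 and 4.44 in middle and 29.99 and 34.1 in old isocortex, and Hbb-bt, a haemoglobin gene, was called lower from young to middle (−4.14, adjusted p = 0.00142 in edgeR). The part of the endothelial, mural and blood lists and of depth per spot in the Id1 difference was not tested. In spots, which mix cells, fewer cells of a type and less RNA per cell cannot be told apart.

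Across the 9 regions, the difference of Id1 from young to old lay above 0 in 8 (median 0.35, from −0.080 to 0.73) and that of Id3 in 8 (median 0.32, from −0.16 to 0.53). Old sections lay above young without overlap in 6 regions for Id1 and in 7 for Id3, and below in none, where 16.4% to 21.5% of genes in a region had that order. Id4 went the other way: its difference lay below 0 in 7 regions (median −0.23), and old lay below young without overlap in 5 and above in none, where 16.5% to 20.6% of genes had that order. Id2 was mixed, with 2 regions above and 1 below without overlap. The regions of a section share its tissue and library, so these counts are descriptions of the same 6 sections. Leaving out 1 section turned the direction in some of them: Id1 became −0.076 in the hypothalamus without young 1 (0.29 with it), −0.14 in white matter without old 2 (0.19) and 0.014 in choroid plexus and ventricle without old 2 (−0.080). Id3 in the white matter became 0.0011 without young 1, and Id3 in the hippocampal formation lay from −0.043 to 0.10. Id4 became 0.12 in the hypothalamus without old 2 (−0.17 with it).

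No member was called in any region from young to middle, where 0% to 2.93% of genes were called (0.0362% in thalamus, 0.0431% in hypothalamus, 0.0706% in striatum), or from middle to old, where the share was 0% to 0.582%. From young to middle, both middle sections lay above both young ones in 5 regions for Id1 and 4 for Id3, and below in 1 region for each. Of all genes in a region, 14.5% to 22.1% had middle above young without overlap and 14.8% to 21.2% had middle below.

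The thalamus, the relay station of the forebrain, differed from the isocortex in when Id1 was highest. Id1 stood there at 22.0 and 23.5 CPM in young, 35.4 and 29.1 in middle and 27.5 and 27.6 in old sections. Middle lay above young by 0.50 ± 0.13 (adjusted p = 0.818 in edgeR) and old below middle without overlap, by 0.22 on the log2 scale. Endothelial markers in the thalamus were also highest at the middle age, summing to 307 and 299, 402 and 349, and 304 and 310 CPM. Of them 9 of 10 lay above 0 from young to middle (median 0.25) and 0 of 10 from middle to old (median −0.28), none called. From young to old their median difference was 0.046, while Id1 stayed above young without overlap. Mural markers had 6 of 7 and then 1 of 7 above 0 at the same steps, and astrocyte markers 7 of 9 and then 2 of 9. The part of these lists in the Id1 values was not tested. Id3 in the thalamus was 49.0 and 45.2, then 60.7 and 62.2, then 60.9 and 62.5 CPM, and old and middle lay together above young (0.39 ± 0.096 for the first step, adjusted p = 0.740).

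In the striatum, the input nucleus of the basal ganglia, Id4 reached its highest level of any region: 298 and 271 CPM in young, 331 and 318 in middle and 244 and 257 in old sections. The 3 ages did not overlap and old was lowest, with a difference of 0.19 ± 0.087 from young to middle (adjusted p = 0.798), −0.37 ± 0.088 from middle to old (adjusted p = 0.935) and −0.18 ± 0.089 from young to old. The step from middle to old had the same direction on both slides (−0.44 on slide 1, −0.31 on slide 2). Without young 1 or young 2 that step was −0.37 each time in edgeR's fit. Whether it was called differed between settings, as given in the closing section, and the cause was not tested. Id3 in the striatum stood at 54.4 and 49.7 CPM in young, 82.3 and 62.2 in middle and 66.9 and 74.2 in old sections, above young at both later ages (0.45 ± 0.13 and 0.44 ± 0.13). Id1 there was 18.1 and 22.9, then 24.2 and 24.1, then 29.3 and 25.4 CPM. Mural markers in the striatum summed to 128 and 114 in young, 142 and 160 in middle and 150 and 145 CPM in old sections, with 7 of 7 above 0 from young to middle (median 0.66), and their part was not tested.

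The cluster named amygdala and olfactory cortex gave the largest difference of Id4, −0.62 ± 0.19 from young to old: 63.8 and 76.3 CPM in young, 59.8 and 69.8 in middle and 33.4 and 56.6 in old sections. The low value is that of old 1, and without it the difference was −0.33. Id2 stood there at 144 and 145 CPM in young, 166 and 154 in middle and 174 and 164 in old sections. Those ages of Id2 overlapped only between middle and old, and old lay above young by 0.22 ± 0.11. Oligodendrocyte markers there summed to 1954 and 1392, 1914 and 2600, and 2033 and 1963 CPM, with 8 of 8 above 0 from young to old, and their part was not tested.

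White matter, the myelinated fibre tracts, had the most genes called with age of the 9 regions, and the Id genes were not among them. Id4 was 185 and 167 CPM in young, 155 and 131 in middle and 142 and 143 in old sections, lower than young at both later ages (−0.30 ± 0.10 for each, adjusted p = 0.138 for the first in edgeR). Id3 was 190 and 153 in young, 145 and 151 in middle and 152 and 155 CPM in old sections, and Id1 was 40.8 and 37.2, 41.9 and 40.4, and 35.3 and 52.7 CPM. Id1 and Id3 thus overlapped between young and old here. Microglial markers in the same spots summed to 657 and 762 CPM in young, 886 and 944 in middle and 1230 and 1487 in old sections. Oligodendrocyte markers were lower at the middle age (56144 and 57422 CPM, then 49224 and 43368, then 51141 and 47157), with 4 of 8 called lower from young to middle and 0 of 8 above 0. Inhibitory neuron markers were higher (243 and 378, then 576 and 841, then 430 and 399), with 3 of 6 called higher. The part of these 3 lists in the lower Id4 was not tested.

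In the choroid plexus and ventricle clusters, where cerebrospinal fluid is made, Id1 was lowest at the middle age: 91.8 and 93.8 CPM in young, 70.9 and 67.7 in middle and 93.9 and 81.5 in old sections (−0.42 ± 0.17 from young to middle, adjusted p = 1.0 in edgeR). Fibroblast markers in the same spots were also lowest then, summing to 539 and 707, 412 and 490, and 515 and 562 CPM, with 0 of 6 above 0 from young to middle, and their part was not tested. Meninges, the membranes over the brain, held 113 and 132 CPM of Id1 in young, 133 and 129 in middle and 134 and 179 in old sections. Id3 in the meninges stood at 310 and 211, 283 and 381, and 372 and 392 CPM, with young 2 apart below the rest and both old sections above both young ones (0.53 ± 0.17, or 0.86 without young 1 and 0.31 without young 2). Mural markers in the meninges summed to 1542 CPM in old 2 against 656 to 834 in the other 5 sections, and their part was not tested.

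In the hypothalamus Id1 stood at 10.99 and 17.8 CPM in young, 13.9 and 17.7 in middle and 15.4 and 18.4 in old sections, and young 1 was the lowest. Id3 there stood at 26.2 and 33.3, 36.2 and 42.9, and 33.6 and 43.9 CPM, above young at both later ages (0.44 ± 0.16 from young to middle, adjusted p = 0.999 in edgeR).

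The hippocampal formation needs its library named first: young 1 had 66 spots there against up to 294 in the others, and its oligodendrocyte markers summed to 8758 CPM against 2651 to 3547 in the other 5 sections. Id2 stood there at 94.7 and 117 CPM in young, 149 and 135 in middle and 135 and 129 in old sections, above young by 0.40 ± 0.12 at the middle age (adjusted p = 1.0 in edgeR). Without young 1 that difference was 0.28 ± 0.091 (adjusted p = 0.389). Without young 2 it was 0.59, with an adjusted p of 0.000837, a call that then rests on young 1 alone. Id1 stood at 17.5 and 20.6, 21.2 and 21.3, and 24.7 and 29.6 CPM, and old lay above young by 0.46 ± 0.16, or by 0.38 ± 0.15 without young 1. Choroid plexus markers in these hippocampal spots summed to 1268 and 670 CPM in young, 196 and 6692 in middle and 3167 and 2974 in old sections, with 5 of 5 above 0 from young to old. Of the 66 spots of young 1, 6 lay in the cluster led by C1ql2 and Dsp, against 71 to 99 in the other sections. The cluster led by Fibcd1 and Lefty1 was absent from young 1. The part of oligodendrocyte RNA, choroid plexus RNA and this make-up of clusters in the differences of Id1 and Id2 was not tested.

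**Figure D2:**
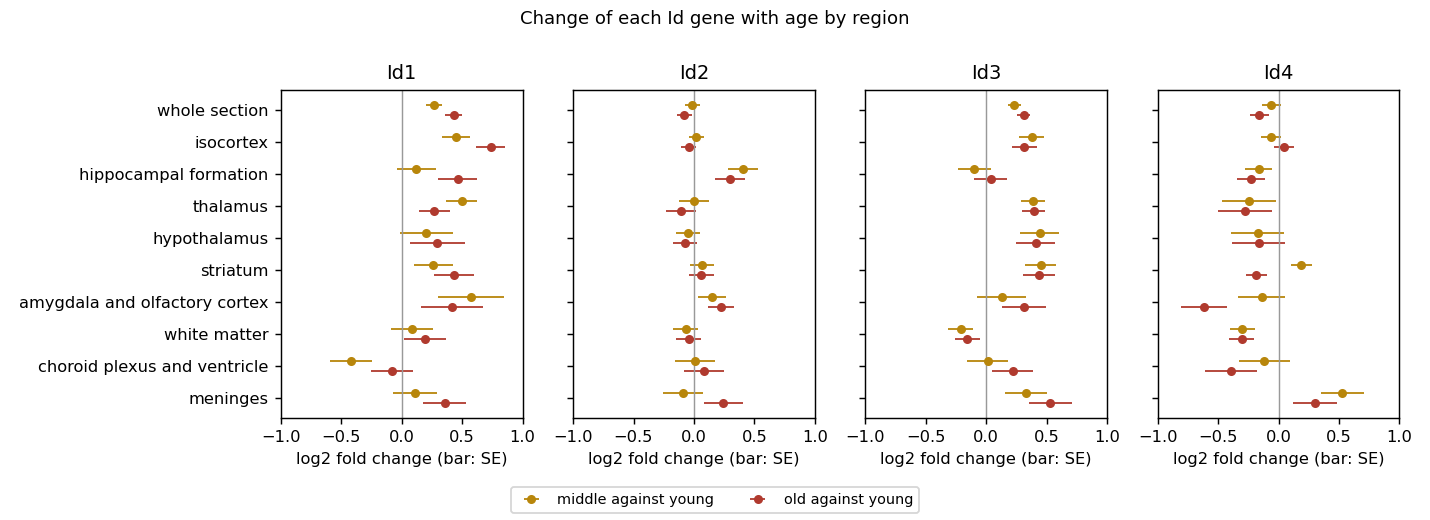
Log2 fold change of Id1 to Id4 in the middle and the old against the young sections, over the whole section and in each of 9 regions; points are the fitted values and bars their standard errors. Id1 and Id3 lie to the right of 0 in most regions, with Id1 in the isocortex at 0.73 for old against young, and Id4 lies to the left in 7 of 9 regions for old against young.

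The level of the members differed far more between regions than between ages. Id1 was highest in the meninges at a mean of 137 CPM over the 6 sections (113 to 179), followed by choroid plexus and ventricle at 83.3 (67.7 to 93.9) and white matter at 41.4 (35.3 to 52.7), and the ranges of these 3 did not overlap. Below them came the thalamus at 27.5, the striatum at 24.0, the hippocampal formation at 22.5, the isocortex at 19.8, the amygdala and olfactory cortex at 16.7 and the hypothalamus at 15.7 CPM, each overlapping its neighbour. From top to bottom the levels of Id1 spanned 8.71-fold.

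Id3 had the same 3 regions at its top and the widest span of the family, 12.4-fold. It stood at 325 CPM in the meninges (211 to 392), 205 in choroid plexus and ventricle (170 to 229) and 158 in white matter (145 to 190). Below these came the hippocampal formation at 69.1 CPM, with no overlap to white matter, then the striatum at 65.0, the thalamus at 56.8, the hypothalamus at 36.0, the amygdala and olfactory cortex at 33.6 and the isocortex at 26.1.

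Id2 had another order. It was highest in the isocortex, at 242 CPM (236 to 257), and in the meninges, at 236 (203 to 303), which overlapped. The amygdala and olfactory cortex followed at 158 (144 to 174), then white matter at 128, the hippocampal formation at 127, choroid plexus and ventricle at 119 and the thalamus at 116, all overlapping, and the hypothalamus at 91.3 and the striatum at 90.0. Its span was the narrowest, 2.69-fold.

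Id4 had nearly the reverse extremes: it was highest in the striatum, at 287 CPM (244 to 331), where Id2 was among its lowest, and lowest in the isocortex, at 42.1 (38.2 to 46.5), where Id2 was among its highest. Between them lay choroid plexus and ventricle at 205, the thalamus at 173, white matter at 154, the meninges at 148, the hypothalamus at 96.7, the hippocampal formation at 94.8 and the amygdala and olfactory cortex at 60.0. The hypothalamus and the meninges did not overlap for Id4, and its span was 6.80-fold.

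Where the clusters were drawn moved the levels of the meninges most. At a coarser clustering, in plain CPM, Id1 there stood at a mean of 67.1 and Id3 at 172, below choroid plexus and ventricle at 84.0 and 207. At a finer clustering the meninges stood at 115 for Id1 and 312 CPM for Id3, again at the top. The extremes of Id2, whose neighbours overlapped, changed places: the meninges (247) lay above the isocortex (243) at the coarser clustering, and the hypothalamus (91.3) below the striatum (93.2) at the finer one.

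**Figure D3:**
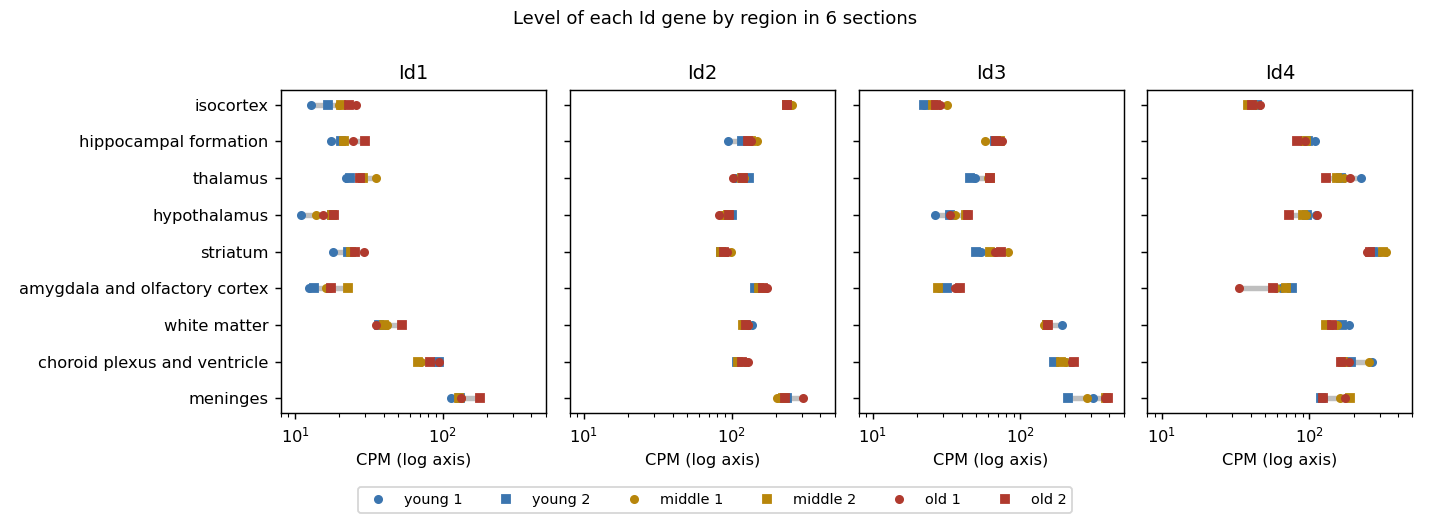
Expression of Id1 to Id4 (CPM, log axis) in 9 regions; each point is a section, coloured by age, and the grey bar spans the 6 sections. Id1 and Id3 are highest in meninges (means 137 and 325), Id2 in isocortex (242) and Id4 in striatum (287).

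Within regions the members marked out particular clusters. In the isocortex Id2 varied by cluster: 291 CPM (278 to 302) in the cluster led by Lamp5 and Rasgrf2, 271 in that led by Rprm and Nxph3, 222 in that led by Fezf2 and Parm1 and 178 (164 to 196) in that led by Rspo1 and Kcnab3. The highest Id2 of all 26 clusters, 294 CPM, was in an unnamed cluster led by Tshz2. In the hippocampal formation the cluster led by C1ql2 and Dsp, genes of dentate granule cells, held 179 CPM of Id2, 99.3 of Id3 and 109 of Id4 over the 5 sections with at least 20 spots. The clusters led by Homer3 and Npy2r and by Fibcd1, a gene of pyramidal cells, and Lefty1 held 57.6 and 62.2 CPM of Id2, 14.3 and 17.2 of Id3, and 6.30 and 10.7 of Id1. The first of these was the lowest of all clusters for each of the 4 genes.

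In the thalamus the cluster led by Calb2 and Gbx2 held 230 CPM of Id4 (170 to 270) and 79.4 of Id2, and the cluster led by Prkcd and Tnnt1 held 157 of Id4 (120 to 195) and 127 of Id2. Id2 and Id4 thus took opposite orders within the thalamus as they did between isocortex and striatum. Among unnamed clusters, that led by Myoc and Ndnf held 43.9 CPM of Id1 and 119 of Id3, and that led by Gng8, Gpr151 and Tac2 held 38.2 of Id1 and 121 of Id3.

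**Figure D4:**
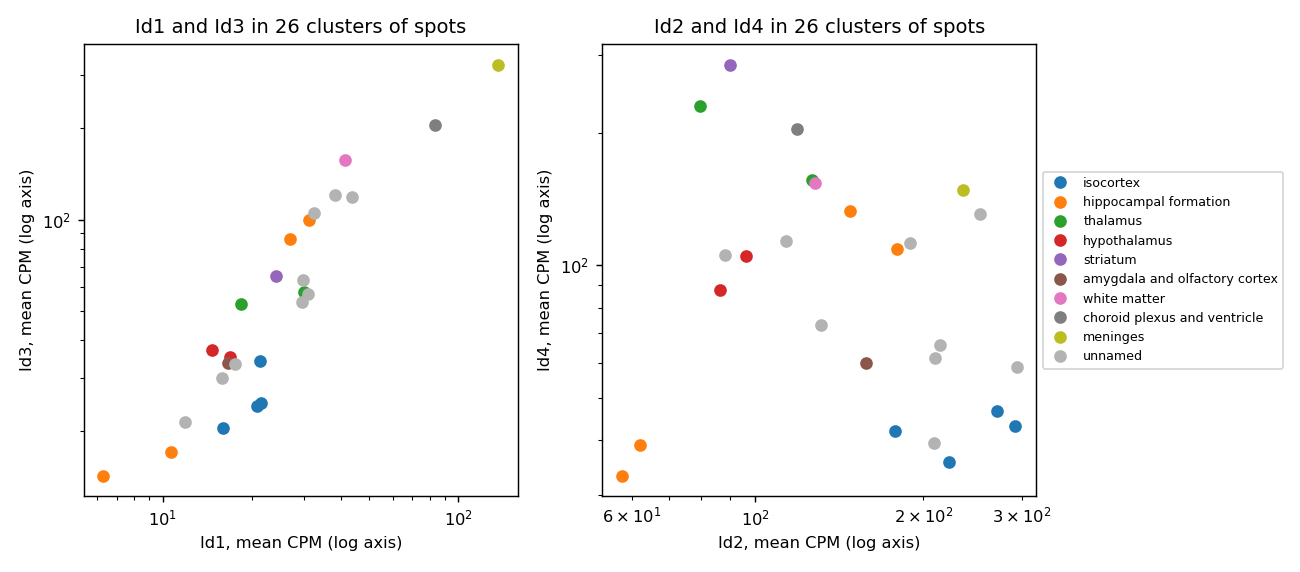
Mean CPM of Id1 against Id3 and of Id2 against Id4 in 26 clusters of spots (log axes), coloured by region; means are over the sections with at least 20 spots in the cluster. Id1 and Id3 rise together along a diagonal (mean r 0.88 within sections), and Id2 and Id4 do not (−0.28).

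The pairs were compared across clusters within each section, on log2(CPM + 1), as a description: the 23 to 26 points of a section share its library and depth. Id1 and Id3 were the closest pair, with a mean Pearson r of 0.88 over the 6 sections (0.84 to 0.92), followed by Id3 and Id4 at 0.74 (0.69 to 0.81) and Id1 and Id4 at 0.57. Id2 stood apart from Id1 (0.26) and Id3 (0.10), and ran against Id4 in every section (−0.28, from −0.44 to −0.17).

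Across 9586 genes of at least 10 CPM, the 5 whose pattern over clusters was most like Id1 were Hspb1 (mean r 0.89), Id3 (0.88), Serpinh1 (0.88), Ahnak (0.88) and Lamb2 (0.87). Hspb1 is a small heat shock protein, Serpinh1 a collagen chaperone and Lamb2 a laminin of basement membranes. For Id3 they were Vim (0.91), an intermediate filament gene, Apoe (0.91), a lipid carrier, Aebp1 (0.90), Ptgds (0.89), the prostaglandin D2 synthase of the meninges, and Zfp36l1 (0.89). For Id4 they were Tmem47, Sox2 and Tbc1d16 (0.75 each), Mdk (0.74) and Id3 (0.74), of which Sox2 is a transcription factor of neural progenitors and glia. For Id2 they were C130074G19Rik (0.83), Ipcef1 (0.79), Igfbp6 (0.77), Gm11549 (0.77) and Epop (0.76).

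Summed marker lists were compared in the same way. Endothelial markers ran with Id1 (mean r 0.89) and Id3 (0.83), less with Id4 (0.58) and little with Id2 (0.21). Fibroblast markers ran with Id1 at 0.84 and Id3 at 0.86, and at 0.056 with Id2. Mural markers ran with Id1 at 0.88 and Id3 at 0.86. Microglial, ependymal and oligodendrocyte precursor markers ran with Id3 at 0.74, 0.72 and 0.72, so the match was not particular to 1 cell type. Excitatory neuron markers ran with Id2 at 0.41 and against Id1 (−0.33), Id3 (−0.35) and Id4 (−0.45). Astrocyte markers had more even values, from 0.36 for Id2 to 0.62 for Id3. Blood markers ran with Id1 at 0.55, Id2 at 0.48, Id3 at 0.47 and Id4 at 0.17.

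In single spots, the share with at least 1 UMI of a member was compared after each spot was thinned to 10000 UMIs, which left out 130 to 350 shallower spots per section. Id1 was then found in 16.5% and 20.2% of spots in young, 22.0% and 22.8% in middle and 23.5% and 25.5% in old sections. Unthinned, the shares were 36.5% and 39.4%, 44.1% and 44.6%, and 40.2% and 40.2%, so at full depth the old sections, the shallowest per spot, no longer lay above the middle. Thinned shares of Id3 were 33.7% and 35.0%, 38.2% and 40.2%, and 39.8% and 41.1% (58.4% and 58.5%, 65.2% and 65.0%, and 60.3% and 59.5% unthinned). Id2 was found in 72.7% to 74.4% of thinned spots and Id4 in 54.5% to 58.7%. In the isocortex the thinned share of Id1 ran from 11.6% and 15.7% in the young to 23.8% and 20.4% in the old sections.

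The highest count in any spot was 15 UMIs for Id1, 36 for Id2, 38 for Id3 and 44 for Id4. Among thinned spots, Id1 and Id3 fell in the same spot 1.36 times as often as their separate shares would give (1.26 to 1.55 over sections), Id3 and Id4 1.15 times (1.14 to 1.17) and Id2 and Id4 0.976 times. The share of spots with a UMI cannot be set against a cell type that lacks these genes, since each spot mixes cell types.

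The rest of the pathway was read from 8 lists of 73 genes, of which 67 passed the filter on low counts over whole sections. None of the 67 was called by edgeR from young to middle or from young to old, against 0.0679% and 0.164% of all genes. At an unadjusted p under 0.05 there were 8 in each, not read as a result, since those shares are of adjusted p. DESeq2 called 1 in each, Bhlhe41. Their median differences were −0.040 and −0.029 on the log2 scale, against −0.0048 and −0.0023 over all genes, with 25 and 29 of 67 above 0.

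Among ligands, 7 of 13 were measured well enough to test and 3 of 7 lay above 0 from young to old. Bmp3 stood at 10.7 and 11.3 CPM in young, 10.7 and 10.8 in middle and 10.3 and 10.0 in old sections (−0.12 ± 0.073, adjusted p = 0.535 in edgeR). Bmp7 stood at 7.7 and 6.5, 7.1 and 7.5, and 7.6 and 8.4 CPM (0.17 ± 0.11, adjusted p = 0.555). Bmp7 was at its highest in the meninges, at 87.5 CPM (74.4 to 104), and in choroid plexus and ventricle, at 36.2. These 2 regions also led for Id1 and Id3, and Bmp7 stood between 3.67 and 7.27 in the other 7. Of the secreted inhibitors described below, Nbl1 was also highest in the meninges, at 365 CPM, and Twsg1 in the same 2 regions, at 66.4 and 52.1. The part of any of these genes in the levels of Id1 and Id3 was not tested. Bmp3 was highest in the amygdala and olfactory cortex, at 67.7 CPM.

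Of 11 receptor and co-receptor genes, 5 lay above 0 from young to old. Bmpr2, the type II receptor, stood at 101 and 103 CPM in young, 97.0 and 98.7 in middle and 94.2 and 100.2 in old sections (−0.068 ± 0.053, adjusted p = 0.627 in edgeR). Its levels over the 9 regions ran only from 59.0 to 112 CPM. Of the 4 Smad transducers, 1 lay above 0. Smad1 stood at 22.1 and 24.6, 20.9 and 20.7, and 22.6 and 21.0 CPM, and Smad5 at 20.4 and 19.9, 18.2 and 19.7, and 20.2 and 18.5 CPM, and ages overlapped for both between young and old.

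Secreted inhibitors, which trap BMP ligands outside the cell, had a median difference of 0.0015 from young to old, with 6 of 11 above 0. Nbl1 stood at 39.9 and 46.8 CPM in young, 36.4 and 42.3 in middle and 46.5 and 45.7 in old sections. In the isocortex Nbl1 stood at 26.2 and 32.6, 22.2 and 22.0, and 25.5 and 23.1 CPM, lower than young at both later ages (−0.41 ± 0.10 from young to middle, adjusted p = 0.227 in edgeR). Twsg1 differed by 0.002 from young to old. Of 8 intracellular inhibitors 2 lay above 0, and the 2 most abundant were Ski (−0.11 ± 0.058, adjusted p = 0.461) and Tob1 (−0.15 ± 0.095, adjusted p = 0.554).

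Of 10 other BMP target genes, 5 lay above 0 from young to old, at a median of 0.027, and none was called. Hey1 stood at 44.5 and 41.2 CPM in young, 39.2 and 40.4 in middle and 40.9 and 38.9 in old sections (−0.10 ± 0.056, adjusted p = 0.483 in edgeR). Tmem100, a target in endothelial cells, stood at 14.5 and 13.6, 15.1 and 14.4, and 13.6 and 13.1 CPM.

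Of the E proteins, the partners that ID proteins sequester, all 3 lay below 0 from young to old (median −0.17), none past the test. Tcf4 was spread widely within ages, at 184 and 202 CPM in young, 218 and 140 in middle and 187 and 147 in old sections (−0.21 ± 0.25). The 2 sections of slide 2, middle 2 and old 2, were its lowest. Tcf12 stood at 25.3 and 25.4, 24.2 and 21.0, and 23.1 and 22.0 CPM (−0.17 ± 0.075, adjusted p = 0.397 in edgeR).

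Among 13 other bHLH genes, 7 lay above 0, and Bhlhe41, a repressor tied to the circadian clock, was the sole pathway gene called in the isocortex. It rose there from 18.9 and 17.5 CPM in the young to 26.2 and 24.7 in the middle sections (0.48 ± 0.085, adjusted p = 0.0372 in edgeR) and stood at 24.7 and 24.4 in the old (0.43 ± 0.087, adjusted p = 0.0788). This call is 1 of 63 pathway genes tested, against 0.171% of all genes, and was lost with DESeq2 (adjusted p = 0.0728), with slide as a term (0.104), without middle 1 (0.301) and without middle 2 (0.151), young 1 (0.0532) or young 2 (0.195). Over whole sections Bhlhe41 stood at 26.8 and 27.9, 35.1 and 35.0, and 33.3 and 36.3 CPM (0.36 ± 0.057 from young to middle, adjusted p = 0.136). Its relatives Bhlhe40 and Olig1 differed by 0.029 and 0.039 from young to old. In white matter none of 52 tested pathway genes was called, where 2.93% and 2.52% of all genes were called from young to middle and from young to old. At an unadjusted p under 0.05, a threshold unlike that of these shares, there were 9 and 7 of them, not read as a result.

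**Figure D5:**
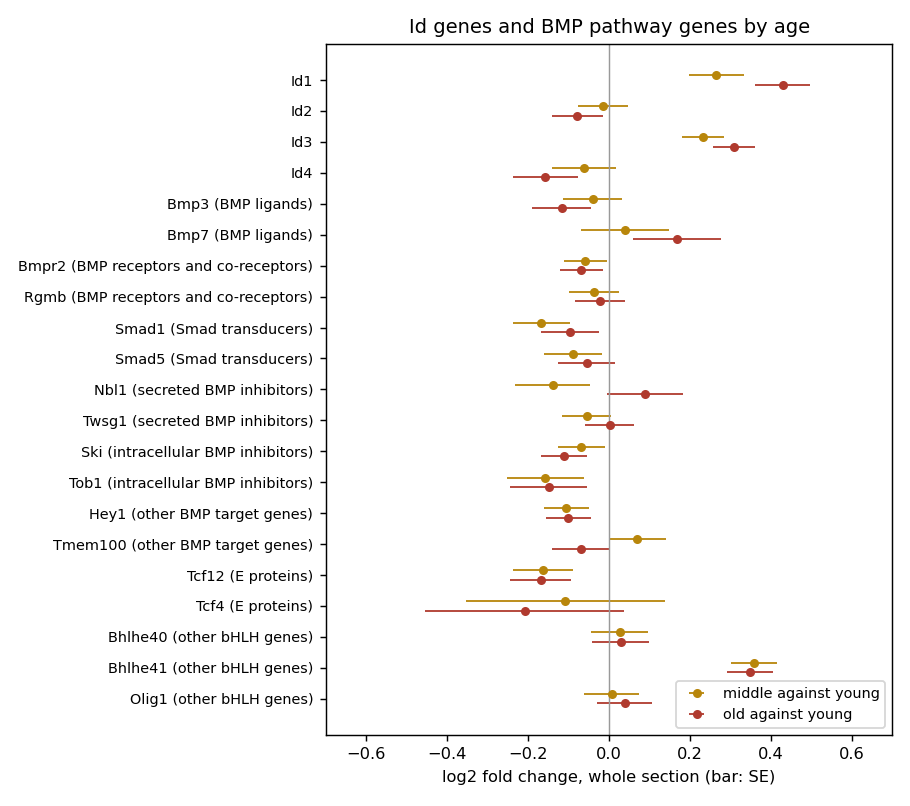
Log2 fold change over whole sections of the 4 Id genes and 17 named pathway genes, middle and old against young, with standard errors. Id1 (0.43), Id3 (0.31) and Bhlhe41 (0.35) lie farthest to the right for old against young, Bmp7 lies at 0.17, and the named receptors, Smads and E proteins lie near 0 or to its left.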

How the data were processed

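The authors deposited UMI counts per gene and spot, on the mm10 build per the submitters' processing notes. Per the file headers the software was Space Ranger 1.3.1, where those notes list 3.1. From these counts, spots under 500 UMIs were left out. Spots of all sections were clustered (2000 variable genes, 30 principal components, 20 neighbours, Leiden resolution 0.8, leidenalg 0.10.2) without the Id genes, the pathway lists, mitochondrial or haemoglobin genes. A cluster took a region name from at least 3 region markers among its 50 leading genes, 3 of them in the first 10 and at least 2 times the next region's number.

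Counts were summed per section and per section and region, filtered on low counts and tested across the 3 ages with edgeR 4.0.16 (quasi-likelihood, trimmed mean of M-values, 3 residual degrees of freedom, adjusted p under 0.05 over all genes, R 4.3.3). DESeq2 1.42.0 and the other alternatives are given in the closing section. All 4 members passed the filter over whole sections and in all 9 regions. Of 32285 gene IDs, 32158 matched GENCODE M21. On simulated old against young data the test recovered 76.1% (17673 genes, whole section) and 84.6% (15209 genes, isocortex) of genes changed by 1 on the log2 scale, with 12.7% and 9.42% of calls false.

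Named genes were the members, the pathway genes called in the whole section, isocortex or white matter, the 2 most abundant tested genes of each list and the 5 genes most like each member across clusters of at least 20 spots. The members and lists were chosen with earlier results of these data known. Section numbers 1 and 2 tie nothing across ages in the labels and were not used as pairs. With 2 sections per age, p-values measure only the spread between these sections.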

Additional observations from a re-analysis of the deposited data

Results flagged for a closer look

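Members moved in opposite directions in different regions in several comparisons, with both sections of each age apart; in each case the difference between the regions was not tested. From young to middle, Id1 was lower in choroid plexus and ventricle (−0.42 on the log2 scale) and higher in isocortex, hippocampal formation, thalamus, striatum and amygdala with olfactory cortex. From middle to old it was lower in thalamus (−0.22) and higher in isocortex, hippocampal formation, striatum, choroid plexus and meninges. Id2 was lower in isocortex from middle to old (−0.065) and higher in meninges, and from young to old it was lower in isocortex (−0.044) and higher in hippocampal formation and amygdala with olfactory cortex. Id3 was lower in white matter from young to middle (−0.21) and higher in isocortex, thalamus, hypothalamus and striatum. Id4 was higher in striatum (0.19) and meninges (0.53) from young to middle and lower in hippocampal formation, hypothalamus and white matter. None of these steps passed the test over all genes within its region. Of all genes in a region, 15.5% to 20.4% had old above middle without overlap and 14.9% to 19.4% had old below. From young to middle these shares were 14.5% to 22.1% and 14.8% to 21.2%, and from young to old 16.4% to 21.5% and 16.5% to 20.6%.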

How the results depend on the processing

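Over the alternatives tried, 752 log2 fold changes of members were recomputed. They cover every comparison over the whole section and isocortex, and old against young in the other regions. Of them 724 kept their direction, 28 changed sign and 2 passed the threshold, both in the isocortex. Calls at the tested steps of the other regions lie outside these values and are given below. Of the 28 sign changes, 16 were old against young in regions other than the isocortex. There, Id1 in the hypothalamus and white matter, Id4 in the hypothalamus (each without 1 section) and Id4 in the meninges (0.30, or −0.019 at Leiden resolution 1.2) did not start near 0. Id2 in the thalamus went from −0.10 to 0.079 without young 2. In the isocortex, Id4 ran from −0.060 to 0.13 for old against young. From young to middle, Id2 over the whole section was 0.032 with equal spots of each region and 0.031 with slide as a term (−0.097 to 0.064 leaving out sections in turn), and Id4 in the isocortex was 0.021 with slide as a term (−0.15 to 0.015). Leaving out sections in turn gave −0.14 to 0.025 for Id4 over the whole section and −0.037 to 0.077 for Id2 in the isocortex (−0.017 without young 2). From middle to old it gave −0.14 to 0.018 for Id2 over the whole section and −0.21 to 0.11 for Id3 in the isocortex.

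From young to old, leaving out sections gave 0.35 to 0.51 for Id1 over the whole section and 0.56 to 0.93 in the isocortex. With no filter on low counts, edgeR called 2 members in the isocortex from young to middle, Id1 (0.45, adjusted p = 0.00395) and Id3 (0.37, adjusted p = 0.00905). In the striatum it called 1 from young to middle (Id3, adjusted p = 0.0360) and 1 from middle to old (Id4, adjusted p = 0.0387). The cause was not tested. Shares of all genes called in the striatum and hippocampal formation under the alternatives are not given here. Calls of members in those 2 regions are therefore not read as a result about the members. Leaving out sections, 0 to 1 member was called in the hippocampal formation from young to middle and in the striatum from middle to old. Of pathway genes over the whole section, 1 was called from young to middle and 1 from young to old by DESeq2 and with no filter, and 0 to 1 from young to old without single sections. In the isocortex from young to middle, 0 were called with DESeq2, with the replicate block or with slide as a term, 3 with no filter and 0 to 1 without single sections, and from young to old 1 with no filter. In white matter, 2 were called from young to middle at Leiden resolution 1.2 and 0 to 1 from young to old without single sections.

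Section numbers as a replicate block gave 0.27 for Id1 over the whole section from young to middle (adjusted p = 0.456), called no member, and ended the call of Bhlhe41 in the isocortex (adjusted p = 0.0643). Deviations of equal numbers correlated at 0.019, 0.135 and 0.241 for the pairs of ages. Over all genes of the whole section, 4 higher and 8 lower calls from young to middle became 36 and 34 with DESeq2, 32 and 26 with no filter and 0 and 3 with slide as a term. From young to old, 16 higher and 13 lower calls became 113 and 81, 68 and 45, and 3 and 4. In the isocortex, 11 and 15 became 86 and 71 with no filter from young to middle, and 18 and 12 became 96 and 97 from young to old. Slide as a term gave 7 and 6, and 9 and 6, there.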
